A study of Mus musculus with 48 samples.

Results

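The TNF superfamily is a group of trimeric ligands, most of them anchored in the membrane of the cell that makes them, and of receptors that assemble around them. Ligand binding recruits TRAF adaptors or death-domain proteins to the receptor, which lead to the transcription factor NF-κB, to stress kinases or to cell death. In the vessel wall, TNF from leukocytes is known to activate endothelial and smooth muscle cells, and the RANKL and osteoprotegerin pair is known for the formation of bone-resorbing cells and for vascular calcification. The 10 genes described here are the ligands Tnf, Tnfsf8, Tnfsf9, Tnfsf11 and Tnfsf14 and the receptors Tnfrsf1a, Tnfrsf1b, Tnfrsf9, Tnfrsf11b and Tnfrsf12a. They were found by gene symbol among the 18782 genes of the deposited table, where all 10 were present. Tnf encodes TNF, and Tnfrsf1a and Tnfrsf1b encode its receptors TNFR1 and TNFR2. Tnfsf9 and Tnfrsf9 encode the pair 4-1BB ligand and 4-1BB, which costimulates T cells. Tnfsf11 encodes RANKL, and Tnfrsf11b encodes osteoprotegerin, the secreted decoy that binds it. Tnfsf8 encodes CD30 ligand, Tnfsf14 encodes LIGHT, and Tnfrsf12a encodes Fn14, the receptor of TWEAK.

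RNA of the thoracic aorta was measured in 48 wild-type C57BL/6J mice, 1 library per mouse, which formed 6 groups of 10 FeCon, 8 FeNonAD, 9 FeAAD, 10 MaCon, 4 MaNonAD and 7 MaAAD. Fe marks females and Ma males. NonAD and AAD mice drank water with 0.4% β-aminopropionitrile (BAPN), an inhibitor of the lysyl oxidases that cross-link collagen and elastin, for 28 days from 3 weeks of age, and Con mice drank plain water for the same time. AAD aortas carried a dissection or aneurysm at the end of that time and NonAD aortas had no lesion under the microscope. Only mice that survived to the end are included, and the study's methods describe the RNA as coming from lesioned segments of perfused aortas. Library totals lay between 13548000 and 17281273 counts. The smooth muscle markers, which define the tissue, were present in every library, with summed levels from 11800 to 60200 CPM (CPM is the count scaled to the library's size with TMM factors).

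Before any comparison, libraries that stood apart from their groups were identified. For several members, FeAAD5, FeAAD9 or MaAAD7 was the highest of its group, although FeAAD5 was at the group median for Tnfrsf11b, at 139 CPM. FeNonAD8 was labelled free of a lesion and had the highest summed level of 12 macrophage and monocyte markers of its group, 1100 CPM against a group median of 576 CPM. That level lies within the range of FeAAD (741 to 6490 CPM), and its 89 counts of Tnfsf8 were more than in any FeAAD library. The label was kept. MaNonAD1 was the highest of the 4 MaNonAD aortas in the same markers, at 1020 CPM.

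Per length, 4 of the 5 receptors were more abundant than every ligand in control aortas. Levels were CPM divided by the length in kilobases of the longest transcript of each gene, so that genes can be set side by side. In FeCon, Tnfrsf12a was the highest at 167 ± 46.5 CPM per kb (SD, n = 10), followed by Tnfrsf1a at 82 ± 12.8, Tnfrsf11b at 9.35 ± 4.29 and Tnfrsf1b at 5.07 ± 1.22 CPM per kb. The most abundant ligand was Tnfsf9 at 1.62 ± 0.385 CPM per kb, and Tnf followed at 0.207 ± 0.104 CPM per kb. At the bottom were Tnfsf14 with 0.0585 ± 0.0459, Tnfrsf9 with 0.0358 ± 0.0393, Tnfsf11 with 0.0156 ± 0.0222 and Tnfsf8 with 0.00714 ± 0.00923 CPM per kb, and neighbours among these 4 did not differ beyond their spread. In FeAAD the mean levels at the top kept this order, with 167 ± 92 CPM per kb for Tnfrsf12a, 86.3 ± 15.1 for Tnfrsf1a, 54.3 ± 20.4 for Tnfrsf11b and 16.6 ± 6.97 for Tnfrsf1b (n = 9), and each of the first 2 neighbouring pairs overlapped within 1 SD. Among the ligands in FeAAD, Tnfsf9 stood at 3.52 ± 2.41 CPM per kb, Tnfsf14 at 1.65 ± 2.98, Tnf at 0.928 ± 0.753, Tnfsf8 at 0.543 ± 0.422 and Tnfsf11 at 0.241 ± 0.422 CPM per kb, and each of these overlapped its neighbour in the order within 1 SD. Without FeAAD5 the means were 0.682 ± 0.744 CPM per kb for Tnfsf14, 0.719 ± 0.447 for Tnf and 0.102 ± 0.075 for Tnfsf11 (n = 8), so that the order of Tnfsf14 and Tnf turned. MaCon and MaAAD had the same 4 receptors on top, at 192 ± 67, 66.8 ± 12.9, 6.83 ± 1.92 and 3.95 ± 0.766 CPM per kb in MaCon (n = 10), and at 124 ± 47.6, 103 ± 19.2, 42.3 ± 10.9 and 17.8 ± 6.13 CPM per kb in MaAAD (n = 7), where the first pair again overlapped.

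**Figure D1:**
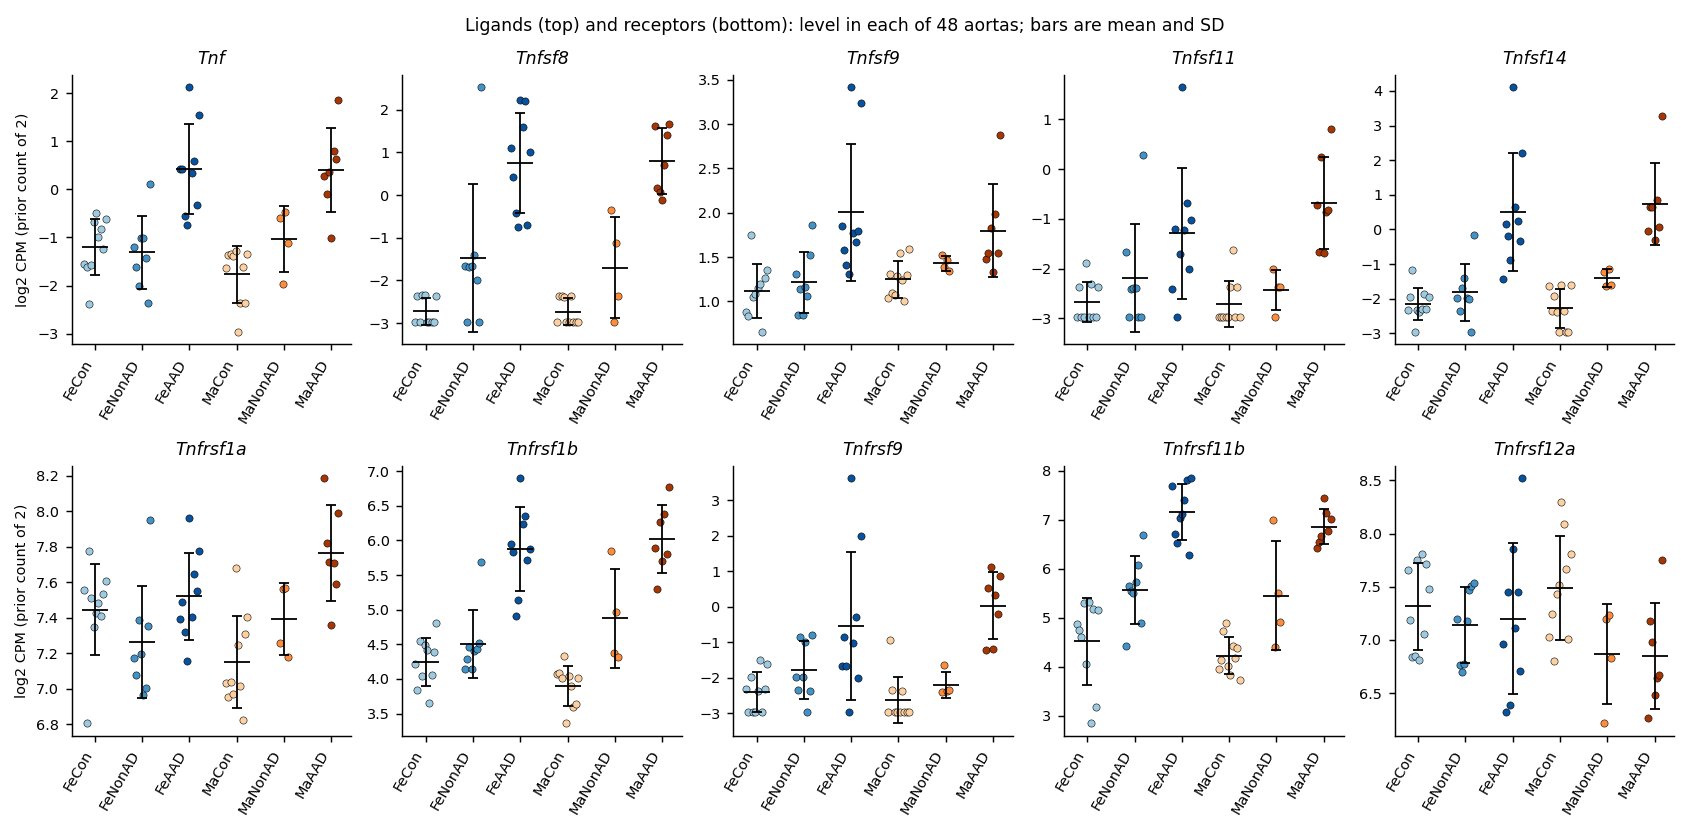
Level of each member in each of the 48 aortas, as log2 CPM with a prior count of 2, by group; a point is 1 mouse, and the bars are the group mean and SD. FeAAD5 is the highest FeAAD point of Tnfsf11 and Tnfsf14, and FeNonAD8 lies far above the other FeNonAD points of Tnfsf8.

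Among the members that were low in controls, the 4 genes Tnf, Tnfsf11, Tnfsf14 and Tnfrsf9 are shown with the 250 bases before their transcription start, because they were called higher together in lesion aortas and their windows hold a match to at least 1 of 3 motifs known from inducible promoters. The sequences are from RefSeq on GRCm38.p6, 5′ to 3′ on the strand of the gene, and 8 of the 10 members, all but Tnfrsf11b and Tnfsf9, had at least 1 entry. Capitals mark a TATA box (TATAAA) in Tnf and Tnfsf11, an AP-1 motif (TGANTCA) in Tnfsf14, and overlapping matches of the κB consensus followed by an AP-1 motif in Tnfrsf9. Both strands were searched, and the match in Tnfsf11 is on the opposite strand.
Tnf, chr17:35202008-35202257, minus strand: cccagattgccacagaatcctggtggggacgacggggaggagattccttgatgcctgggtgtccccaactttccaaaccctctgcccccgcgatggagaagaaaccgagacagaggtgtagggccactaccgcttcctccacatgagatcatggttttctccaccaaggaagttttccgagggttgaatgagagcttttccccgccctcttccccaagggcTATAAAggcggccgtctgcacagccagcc
Tnfsf11, chr14:78308044-78308293, minus strand: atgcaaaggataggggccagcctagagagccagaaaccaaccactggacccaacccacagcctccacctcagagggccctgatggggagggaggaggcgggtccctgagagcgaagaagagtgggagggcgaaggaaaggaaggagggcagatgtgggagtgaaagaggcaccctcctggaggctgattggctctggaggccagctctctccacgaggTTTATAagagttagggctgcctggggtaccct
Tnfsf14, chr17:57194182-57194431, minus strand: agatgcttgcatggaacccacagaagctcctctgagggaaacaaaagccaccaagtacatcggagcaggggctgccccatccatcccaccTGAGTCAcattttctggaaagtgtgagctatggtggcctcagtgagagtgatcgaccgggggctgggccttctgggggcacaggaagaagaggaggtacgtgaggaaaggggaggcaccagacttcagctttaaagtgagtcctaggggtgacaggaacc
Tnfrsf9, the downstream of its 2 starts, chr4:150927749-150927998, plus strand: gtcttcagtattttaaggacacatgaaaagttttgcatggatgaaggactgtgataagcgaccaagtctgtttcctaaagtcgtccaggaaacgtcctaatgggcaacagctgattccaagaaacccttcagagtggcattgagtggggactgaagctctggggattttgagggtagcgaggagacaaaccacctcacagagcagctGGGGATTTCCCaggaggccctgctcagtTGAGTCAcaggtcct

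Counting the base before the start as -1, the TATA box lay at -29 to -24 in Tnf and at -32 to -27 in Tnfsf11. The AP-1 motif lay at -160 to -154 in Tnfsf14. In Tnfrsf9 the κB matches spanned -43 to -33 and the AP-1 motif -15 to -9. The TATA box was found in 2 of the 9 windows of the members and in 12.4% of all 32851 windows of this length, the AP-1 motif in 2 of 9 and in 6.75%, and the κB consensus in 1 of 9 and in 3.9%. The 5 windows of Tnfrsf1a, Tnfrsf1b, Tnfrsf12a and Tnfsf8 and the upstream start of Tnfrsf9 held none of these letters. A match describes the sequence only, and binding was not measured in these samples.

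The first comparison was between aortas with a lesion and water controls of the same sex. In females 8 of the 10 members rose and none fell, where 9.94% of all 14431 genes tested were called higher and 2.78% lower. In males 7 of the 10 rose and none fell, against 9.18% called higher and 2.18% lower. A gene was called when its Benjamini-Hochberg adjusted p in edgeR's quasi-likelihood test was under 0.05 and its absolute log2 fold change at least 1. On adjusted p alone, 8 members passed in females and 10 in males, with 44.4% and 35% of all genes tested. The median log2 fold change of the members was 2.34 in females and 2.76 in males, beside medians of 0 and -0.03 over all genes tested. All 10 members passed the filter on low counts, but Tnf, Tnfrsf9, Tnfsf8, Tnfsf11 and Tnfsf14 reached the level the filter asks for, 0.638 CPM, in no control library, so they passed through the BAPN groups. The counts and medians of members, here and in the comparisons below, therefore describe the members without supporting a difference from other genes.

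**Figure D2:**
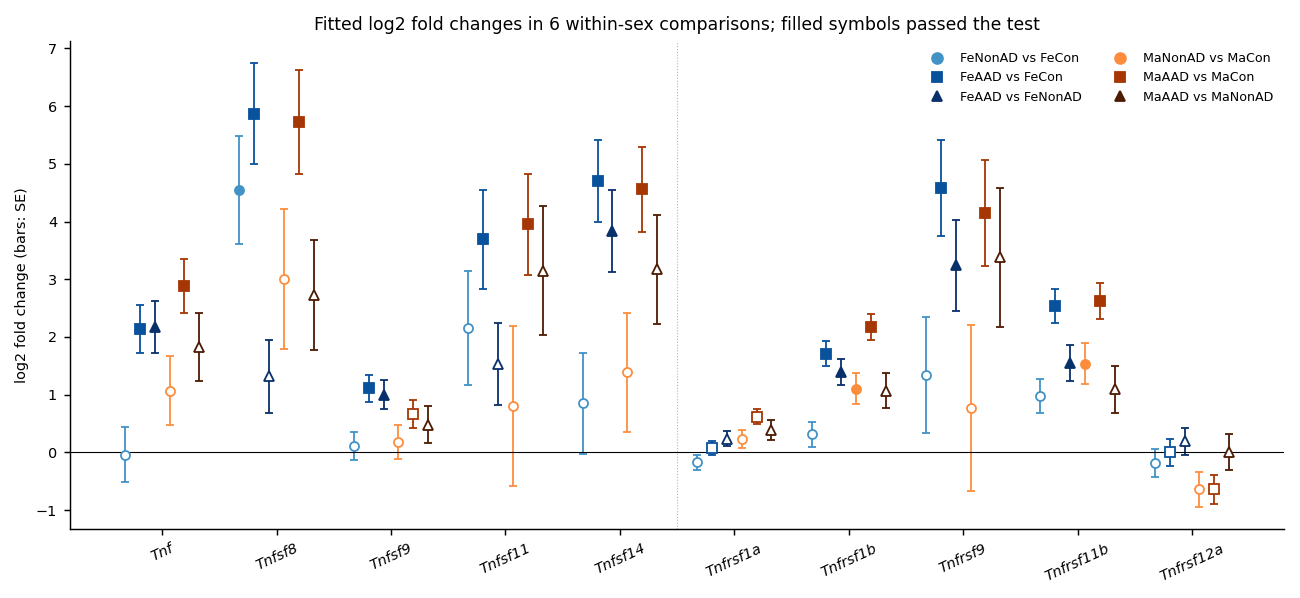
Fitted log2 fold change of each member (ligands left of the dotted line, receptors right) in 6 within-sex comparisons, with its SE; filled symbols passed the test. The squares, AAD against Con, are filled for Tnf, Tnfsf8, Tnfsf11, Tnfsf14, Tnfrsf1b, Tnfrsf9 and Tnfrsf11b in both sexes, and those of Tnfrsf12a lie at 0 in females and -0.64 in males.

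Tnf was near the limit of detection in controls. FeCon libraries held 1 to 9 counts (median 4.5) and MaCon libraries 0 to 4 counts (median 3.5). FeAAD libraries held 8 to 72 counts (median 20) and MaAAD libraries 6 to 60 counts (median 20). The 2 lowest FeAAD libraries, FeAAD4 with 8 counts and FeAAD3 with 9, lay within the range of FeCon, and in males the groups did not overlap. Tnf rose by 2.14 on the log2 scale (SE 0.42, edgeR adjusted p = 5.13e-05) in females and 2.89 (SE 0.47, edgeR adjusted p = 3.34e-06) in males. Without FeAAD5, the highest library, the female value was 1.78, and without MaAAD7 the male value was 2.49, both still called.

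Tnfsf8, the CD30 ligand, had the largest rise of the 10 members in both sexes. Each control group held 4 counts in total and at most 1 in any library, while FeAAD libraries held 8 to 77 counts (median 31) and MaAAD libraries 13 to 52 counts (median 25). No AAD library overlapped a control library. The counts summed over the group, scaled to library size, were 74.9 times higher in FeAAD than in FeCon (95% exact counting interval 29 to 277) and 68.8 times higher in MaAAD than in MaCon (26.5 to 255). These intervals cover counting error only. The fitted log2 fold changes were 5.87 (SE 0.88, edgeR adjusted p = 5.92e-07) and 5.73 (SE 0.90, edgeR adjusted p = 2.08e-06), and leaving out any single library kept them between 5.63 and 6.07 in females and between 5.56 and 5.96 in males. With the log2 ratio of the clock genes Arntl and Dbp as a covariate, chosen after seeing the data, the male value was 7.66, and those of Tnfsf14 and Tnfsf11 below were 5.76 and 5.61, all still called.

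Tnfsf14, which encodes LIGHT, a ligand of the receptors HVEM and LTβR, rose almost as far. It had 0 to 5 counts in FeCon (median 1), 4 to 292 in FeAAD (median 16), 0 to 3 in MaCon (median 1) and 11 to 163 in MaAAD (median 23). FeAAD1, with 4 counts, overlapped FeCon, and the male groups did not overlap. One library in each sex stood well above the rest of its group. FeAAD5 had 292 counts against 75 in the next FeAAD library, and MaAAD7 had 163 against 28 in the next MaAAD library. Tnfsf14 rose by 4.70 on the log2 scale (SE 0.71, edgeR adjusted p = 7.43e-07) in females and 4.56 (SE 0.74, edgeR adjusted p = 3.95e-06) in males. Without FeAAD5 it was 3.43 and without MaAAD7 3.55, and both calls were kept.

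Tnfsf11, which encodes RANKL, rested on few reads. The 10 FeCon libraries held 5 counts together, as did the 10 MaCon libraries. FeAAD libraries held 0 to 51 counts (median 5), with 51 in FeAAD5 and 0 in FeAAD3. MaAAD libraries held 3 to 28 counts (median 7). The female groups overlapped and the male groups met at 3 counts, in MaCon7. Its rise on the log2 scale was 3.69 (SE 0.86, edgeR adjusted p = 4.66e-04) in females and 3.95 (SE 0.87, edgeR adjusted p = 3.32e-04) in males, and the summed counts were 15.8 (6.5 to 50) and 19.2 (7.88 to 60.9) times higher. The first ratio was 6.61 (2.54 to 21.8) without FeAAD5 and 23.8 (7.86 to 118) without FeCon5, and the second was 43.2 (11.6 to 364) without MaCon7, which leaves 2 counts in MaCon. Only 4 libraries, FeAAD5, FeNonAD8, MaAAD3 and MaAAD7, reached the level the filter asks for, and without any of them Tnfsf11 fell out of the test in both sexes. With the 14431 genes kept, the female value was 2.47 without FeAAD5 (edgeR adjusted p = 0.0148), and the male value was 3.51 without MaAAD7 (edgeR adjusted p = 0.0025) and 3.81 without MaAAD3, all still called. Leaving out any other library gave 3.55 to 4.16 in females and 3.83 to 4.81 in males, the highest without MaCon7.

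Tnfsf9, the 4-1BB ligand, was the only ligand with a sizeable level in controls. FeCon libraries lay between 1.45 and 3.23 CPM (median 2.03) and FeAAD libraries between 2.35 and 10.6 CPM (median 3.3). In males MaCon lay between 1.87 and 2.89 CPM (median 2.28) and MaAAD between 2.4 and 7.23 CPM (median 2.79). The groups overlapped in both sexes. The log2 fold change was 1.11 in females (SE 0.23, edgeR adjusted p = 1.08e-04) and 0.66 in males (SE 0.24, edgeR adjusted p = 0.0308), which is under the fold required for a call. The female call rested on FeAAD5 (10.6 CPM) and FeAAD9 (9.3 CPM): the value was 0.85 without the first and 0.91 without the second, neither of them called.

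Of the receptors, Tnfrsf11b (osteoprotegerin) gave the lowest adjusted p in females. It ranged from 7.07 to 40.1 CPM in FeCon (median 27.9), with FeCon7 and FeCon9 as the 2 lowest, and from 78 to 231 CPM in FeAAD (median 139). In males it ranged from 13.2 to 29.8 CPM in MaCon (median 17.8) and from 86 to 174 CPM in MaAAD (median 109). Control and lesion aortas did not overlap in either sex. Tnfrsf11b rose by 2.54 on the log2 scale (SE 0.30, edgeR adjusted p = 4.64e-09) in females and 2.63 (SE 0.31, edgeR adjusted p = 1.45e-08) in males.

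Tnfrsf1b and Tnfrsf1a, both receptors of TNF, parted. Tnfrsf1b, which is expressed mainly by leukocytes and endothelium, ranged from 12.4 to 27.9 CPM in FeCon (median 19.7), 29.9 to 119 CPM in FeAAD (median 58.4), 10.1 to 20.1 CPM in MaCon (median 16) and 39.3 to 109 CPM in MaAAD (median 59.3). Every AAD library was above every control of its sex. Its log2 fold change was 1.71 (SE 0.22, edgeR adjusted p = 2.79e-08) in females and 2.17 (SE 0.23, edgeR adjusted p = 1.93e-09) in males. Tnfrsf1a, the death-domain receptor found on most cells, had medians of 181 CPM in FeCon and 180 CPM in FeAAD, and of 131 CPM in MaCon and 210 CPM in MaAAD. It ranged from 112 to 219 CPM in FeCon, 142 to 249 CPM in FeAAD, 113 to 205 CPM in MaCon and 164 to 291 CPM in MaAAD, so the groups overlapped in both sexes. The log2 fold change of Tnfrsf1a was 0.08 in females (SE 0.12, edgeR adjusted p = 0.646) and 0.62 in males (SE 0.13, edgeR adjusted p = 1.69e-04), neither of which reached the fold required for a call. The difference between the sexes in this response was 0.54 on the log2 scale (SE 0.18, edgeR adjusted p = 0.105).

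The ratio of the receptors of TNF within each library does not depend on how libraries are scaled. FeCon had a median of 109 counts of Tnfrsf1b per 1000 counts of Tnfrsf1a (range 69.4 to 143), FeNonAD 142 (120 to 207) and FeAAD 315 (187 to 479). MaCon had 110 (49.3 to 160) and MaAAD 318 (174 to 430), while the 4 MaNonAD aortas lay between 109 and 377. The mean log2 ratio was 1.56 higher in FeAAD than in FeCon (two-sided exact permutation test, adjusted p = 1.3e-04, n = 9 and 10), and the unadjusted p of 1.08e-05 was the smallest these groups allow. In males it was 1.5 higher in MaAAD than in MaCon (exact permutation test, adjusted p = 3.09e-04, n = 7 and 10). FeAAD was 1.12 above FeNonAD (exact permutation test, adjusted p = 4.94e-04, n = 9 and 8), and FeNonAD was 0.44 above FeCon (exact permutation test, adjusted p = 0.0149, n = 8 and 10). The differences of 0.73 between MaNonAD and MaCon (exact permutation test, adjusted p = 0.0983, n = 4 and 10) and of 0.77 between MaAAD and MaNonAD (exact permutation test, adjusted p = 0.152, n = 7 and 4) did not pass. Adjusted p-values are over the 12 tests of this ratio and the next. In males the tests with 4 MaNonAD aortas turned on single libraries: the first passed at 0.96 without MaNonAD2 and at 0.8 without MaCon4, and the second passed at 1.14 without MaNonAD1.

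**Figure D3:**
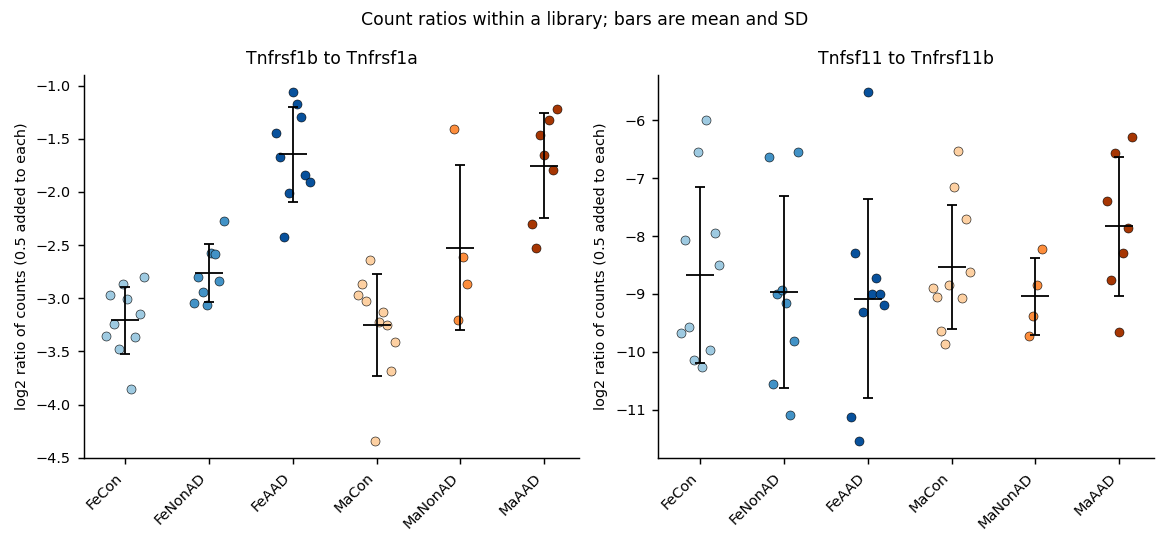
Log2 ratio of the counts of Tnfrsf1b to Tnfrsf1a (left) and of Tnfsf11 to Tnfrsf11b (right) in each library, with 0.5 added to each count; bars are the group mean and SD. The left ratio has a mean of -3.21 in FeCon and -1.65 in FeAAD, while the right ratio is spread from -10.27 to -5.99 within FeCon.

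A difference in the ratio of RANKL to its decoy was not detectable at this depth, where both genes rose with a lesion. Summed over each group, there were 1.29 counts of Tnfsf11 per 1000 counts of Tnfrsf11b in FeCon, 3.47 in FeNonAD and 3.57 in FeAAD, and 1.72, 1.11 and 5.34 in MaCon, MaNonAD and MaAAD. Single libraries moved these sums, to 0.825 without FeCon5, 1.2 without FeNonAD8, 1.47 without FeAAD5 and 0.772 without MaCon7. Single libraries ranged from 0 to 21.7 in FeAAD, the highest being FeAAD5, and from 1.06 to 12.6 in MaAAD. The mean log2 ratio differed by -0.41 between FeAAD and FeCon (two-sided exact permutation test, adjusted p = 0.703, n = 9 and 10) and by 0.71 between MaAAD and MaCon (exact permutation test, adjusted p = 0.327, n = 7 and 10). The other 4 comparisons gave differences from -0.51 to 1.21 with adjusted p from 0.171 to 0.893 in the same exact permutation test, with n between 4 and 10. Where Tnfsf11 has 0 counts, the log2 ratio is set by the 0.5 that was added and by the count of Tnfrsf11b.

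Tnfrsf9, the receptor of the 4-1BB ligand, was called in both sexes but was uneven between lesions. It had 0 to 3 counts in FeCon (median 1) and 0 to 206 in FeAAD (median 6), with 206 in FeAAD5, 63 in FeAAD9 and 0 in FeAAD4, so the female groups overlapped. In males it had 0 to 6 counts in MaCon (median 0, the 6 in MaCon2) and 5 to 35 in MaAAD (median 19), so that MaCon2 overlapped the lesion aortas. The log2 fold change was 4.58 (SE 0.83, edgeR adjusted p = 1.7e-05) in females and 4.15 (SE 0.92, edgeR adjusted p = 3.35e-04) in males. Leaving out FeAAD5 lowered the first to 3.12 and leaving out MaCon2 raised the second to 5.58, and both remained called.

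Tnfrsf12a, which encodes Fn14, was the most abundant member per length and was called in no comparison. It ranged from 112 to 225 CPM in FeCon (median 162) and from 80.1 to 368 CPM in FeAAD (median 139), with FeAAD9 the highest of all libraries. MaCon ranged from 111 to 315 CPM (median 178) and MaAAD from 76.7 to 215 CPM (median 102). The groups overlapped throughout. The log2 fold change was 0 in females (SE 0.23, edgeR adjusted p = 0.995) and -0.64 in males (SE 0.25, edgeR adjusted p = 0.0411), and without MaCon6 the male value was -0.50 and no longer passed (edgeR adjusted p = 0.113).

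The second comparison asked what BAPN did where no lesion was found. In females Tnfsf8 was called higher in FeNonAD than in FeCon, 1 of 10 members where 1.67% of genes were called higher and 1.08% lower. The counts of the 8 libraries were, in order of replicate, 3, 0, 3, 3, 4, 2, 0 and 89, so 89 of the 104 counts were in FeNonAD8. The log2 fold change of 4.55 (SE 0.94, edgeR adjusted p = 9.09e-04) fell to 2.00 without FeNonAD8, where it was not called (edgeR adjusted p = 0.113). Tnfrsf11b was at 21.5 to 104 CPM in FeNonAD (median 48.4), and its log2 fold change of 0.98 (SE 0.29, edgeR adjusted p = 0.0194) was just under the fold required. It reached that fold when any of 9 libraries was left out, at most 1.10 without FeNonAD1, and was 0.76 without FeNonAD8. The other 8 members had log2 fold changes from -0.19 to 2.15 with edgeR adjusted p from 0.137 to 0.971. The 2.15 was that of Tnfsf11, with 17 of its 23 counts in FeNonAD8, and was 0.54 without that library (edgeR adjusted p = 0.79, with the genes of the full fit kept). In the same comparison 2 of 12 macrophage and monocyte markers, 2 of 7 dendritic cell markers and 1 of 5 B cell markers were called higher, and their part in the result was not tested.

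In males 2 of 10 members were called higher in MaNonAD than in MaCon, where 0.381% of genes were called higher and 0.097% lower. The 4 MaNonAD aortas had 127, 21.1, 45.6 and 29.9 CPM of Tnfrsf11b and 57.7, 20.6, 31.1 and 19.8 CPM of Tnfrsf1b, the first value being MaNonAD1 in both. The lowest value of each gene lay within MaCon, which reached 29.8 and 20.1 CPM. The log2 fold changes were 1.54 for Tnfrsf11b (SE 0.35, edgeR adjusted p = 0.0208) and 1.10 for Tnfrsf1b (SE 0.27, edgeR adjusted p = 0.0356). Without MaNonAD1 they were 0.74 (edgeR adjusted p = 0.765) and 0.66 (edgeR adjusted p = 0.714), and neither was called. The call of Tnfrsf1b was also lost without MaNonAD3, MaCon7 or MaCon8, with values of 1.14, 1.09 and 1.06 and edgeR adjusted p of 0.0791, 0.056 and 0.075. The ligands Tnf, with 9, 2, 9 and 5 counts, and Tnfsf8, with 11, 0, 5 and 1 counts, had log2 fold changes of 1.07 (SE 0.60, edgeR adjusted p = 0.501) and 3.00 (SE 1.21, edgeR adjusted p = 0.276). Of the marker lists, 4 of 5 B cell markers were called higher in MaNonAD, with a median log2 fold change of 2.34. No macrophage or red blood cell marker was called by edgeR or DESeq2, while 9 of 12 and 5 of 5 passed at an unadjusted p under 0.05, with medians of 0.80 and 2.08, and the part of these markers in the result was not tested.

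The third comparison set lesion aortas against BAPN-treated aortas without a lesion, which share the treatment. In females 6 of 10 members rose, where 6.79% of genes were called higher and 0.249% lower. Of these 6, Tnf, Tnfrsf9 and Tnfsf14 reached the filter's level in at most 1 FeNonAD library, so the count describes the members only. Tnfsf14 had the largest change, 3.84 on the log2 scale (SE 0.71, edgeR adjusted p = 1.61e-04), followed by Tnfrsf9 at 3.24 (SE 0.79, edgeR adjusted p = 0.00276) and Tnf at 2.18 (SE 0.45, edgeR adjusted p = 5.13e-04). Tnfrsf11b rose by 1.55 (SE 0.31, edgeR adjusted p = 3.23e-04), Tnfrsf1b by 1.39 (SE 0.23, edgeR adjusted p = 9.96e-05) and Tnfsf9 by 1.00 (SE 0.25, edgeR adjusted p = 0.00287). The call of Tnfrsf9 was lost without FeAAD5, at 1.78, and that of Tnfsf9, which sat on the required fold, was lost when any of 7 libraries was left out (0.74 without FeAAD5). The call of Tnfsf14 was kept at 2.58 without FeAAD5 and at 4.52 without FeNonAD8. Tnfsf8 had a log2 fold change of 1.32 (SE 0.63, edgeR adjusted p = 0.136), which became 3.87 and was called once FeNonAD8 was left out, and 1.67 and called with the clock gene covariate (edgeR adjusted p = 0.0308). Tnfsf11 had 1.53 (edgeR adjusted p = 0.129), which with the genes of the full fit kept was 3.16 and called without FeNonAD8 (edgeR adjusted p = 0.00351) and 0.32 without FeAAD5 (edgeR adjusted p = 0.83). FeAAD shares its libraries with the comparison against FeCon, so the 2 sets of values are not independent. Markers called higher in this comparison were 11 of 12 for macrophages and monocytes, 6 of 6 for neutrophils, 4 of 7 for dendritic cells, 3 of 5 for B cells and 5 of 5 for red blood cells, and their part in the result was not tested. Without FeAAD2, which had 26900 CPM of red blood cell markers against 235 to 2130 CPM in the other FeAAD libraries, 0 of those 5 were called and 0 passed at an unadjusted p under 0.05 in edgeR, and 5 of 6 neutrophil markers were called.

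In males no member was called between MaAAD and MaNonAD by edgeR, where 0.353% of genes were called higher and 0% lower. The lowest edgeR adjusted p was 0.0536, of Tnfrsf1b, whose log2 fold change was 1.07 (SE 0.30). Tnf, Tnfrsf9, Tnfsf8, Tnfsf11 and Tnfsf14 reached the filter's level in at most 1 MaNonAD library, so the counts that follow describe the members only. At an unadjusted p under 0.05, 8 of the 10 members were higher, where 12.3% of all genes tested were, and DESeq2 called 3 of them higher, Tnf, Tnfrsf1b and Tnfsf14, where it called 3.46% of its genes higher. The log2 fold changes of these 8 in edgeR were 3.38 (SE 1.20) for Tnfrsf9, 3.17 (SE 0.94) for Tnfsf14, 3.15 (SE 1.12) for Tnfsf11, 2.73 (SE 0.95) for Tnfsf8, 1.82 (SE 0.59) for Tnf, 1.09 (SE 0.40) for Tnfrsf11b, 1.07 for Tnfrsf1b and 0.39 (SE 0.17) for Tnfrsf1a. Without MaNonAD1, Tnfrsf11b was at 1.89 and Tnfrsf1b at 1.51, both called (edgeR adjusted p = 0.0224 for each). Leaving out 1 library gave from 0 to 4 called members, and the libraries that gave any were MaNonAD1, MaAAD1, MaAAD2, MaAAD4, FeNonAD8, FeAAD3, FeAAD4, FeAAD5 and FeAAD8, with 4 without FeAAD5. Female libraries enter because all 48 share the estimate of the spread. Markers of leukocytes were higher as well: for macrophages and monocytes the median was 1.54, with 1 of 12 called by edgeR, 9 by DESeq2 and 12 at an unadjusted p under 0.05, for neutrophils it was 3.34, with 0, 4 and 5 of 6, and for dendritic cells 1.72, with 1, 2 and 4 of 7. Their part in the result was not tested.

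Between the sexes no member was called by edgeR in any of 3 groups or 3 interaction tests. The share of all genes called was 1.51% between MaCon and FeCon, 0.0485% between MaNonAD and FeNonAD, and 0.0693% between MaAAD and FeAAD. It was 0.298% for the sex difference in the response from Con to NonAD, 0.52% for that from Con to AAD and 0% for that from NonAD to AAD. At an unadjusted p under 0.05, 1 member passed between the controls (Tnfrsf1a, at -0.30 on the log2 scale, males minus females, SE 0.12), 1 in the first interaction (Tnfrsf1b, 0.78, SE 0.36) and 1 in the second (Tnfrsf1a, 0.54, SE 0.18), and 0 in the other 3, and DESeq2 called 0 in all 6. Of all genes tested, 29.1%, 12.1% and 15.4% passed at that p in these 3 comparisons, and 6.47%, 2.22% and 1.04% in MaNonAD vs. FeNonAD, MaAAD vs. FeAAD and the third interaction. DESeq2 called 1.83%, 0.0376% and 0.0537% of its genes between the sexes in Con, NonAD and AAD, and 0.605%, 0.84% and 0.00537% in the 3 interactions. Among lesion aortas the differences ran from -0.89 (SE 0.69) for Tnfrsf9 to 0.25 (SE 0.13) for Tnfrsf1a, with edgeR adjusted p of 1 for all 10. Of the marker lists, 4 of 7 T cell and NK cell markers were called higher in MaCon than in FeCon (median 1.61), and 0 were called or passed at an unadjusted p under 0.05 in edgeR without MaCon2 (median 0.28). In MaNonAD vs. FeNonAD 1 of 5 B cell markers was called higher, and 5 of 5 passed at an unadjusted p under 0.05.

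Markers of leukocytes moved with these results. All 12 macrophage and monocyte markers were called higher in FeAAD than in FeCon and in MaAAD than in MaCon, and their summed level was 300 to 705 CPM in FeCon, 741 to 6490 CPM in FeAAD, 252 to 640 CPM in MaCon and 926 to 4500 CPM in MaAAD, with none at 0 in a whole group. Of 6 neutrophil markers tested, 6 were called higher in females and 5 in males, and their sums reached 889 CPM in FeAAD5 and 241 CPM in MaAAD7 against group medians of 11.7 and 22.3 CPM. Of this list, Ly6g was at 0 in every FeNonAD library. Of 7 T cell and NK cell markers tested, 0 were called by edgeR in either sex, 0 passed at an unadjusted p under 0.05 and DESeq2 called 0, with summed levels of 2.06 to 22.6 CPM in FeCon, 3.22 to 19 CPM in FeAAD, 2.67 to 191 CPM in MaCon and 7.62 to 39.4 CPM in MaAAD. The 191 CPM were in MaCon2, which was also the MaCon library with 6 counts of Tnfrsf9. Dendritic cell markers were called higher in 6 of 7 in both sexes, B cell markers in 5 of 5 in females and 3 of 5 in males, and fibroblast markers in 2 of 8 in both. Smooth muscle markers were called lower in 4 of 8 in females and 5 of 8 in males. In females 5 of 5 red blood cell markers were called higher and 4 of 8 heart muscle markers lower, and in males 0 of either list were called by edgeR and 0 and 1 by DESeq2, with 0 and 2 at an unadjusted p under 0.05. The test of the sex difference in this response called 0 of either list by edgeR, while 5 of 5 and 4 of 8 passed at an unadjusted p under 0.05 and DESeq2 called 1 and 0. The median differences, males minus females, were -2.72 and 1.19. Without FeAAD2 the 5 red blood cell markers were still called between FeAAD and FeCon, with a median of 1.33 in place of 3.62, and their median difference between the sexes was -0.40, with 0 of 5 at an unadjusted p under 0.05 in edgeR. Of 8 endothelial markers edgeR and DESeq2 called 0 in either sex, while 4 in females and 3 in males passed at an unadjusted p under 0.05, and of 7 fat cell markers 1 was called lower in females. In whole aorta, more cells of a type and more RNA per cell cannot be told apart, and the part of these markers in the members' values was not tested.

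Within the lesion groups, members varied with the macrophage score to different degrees. The score was the mean log2(CPM + 1) of the 12 markers, and relations were computed in FeAAD (n = 9) and MaAAD (n = 7) alone, 20 in all. Tnfrsf1b followed it closely, with Pearson's r = 0.89 (exact permutation p = 3.97e-04, adjusted p = 0.00397) and Spearman's rho = 0.87 (exact permutation p = 0.00451, adjusted p = 0.0451) in FeAAD, and r = 0.91 (exact permutation p = 0.00417, adjusted p = 0.0167) and rho = 0.89 (exact permutation p = 0.0123, adjusted p = 0.0691) in MaAAD. Tnf gave r = 0.95 (exact permutation p = 3.97e-04, adjusted p = 0.00397) and rho = 0.96 (exact permutation p = 0.00278, adjusted p = 0.0451) in MaAAD, and r = 0.73 (exact permutation p = 0.0222, adjusted p = 0.0554) and rho = 0.70 (exact permutation p = 0.0401, adjusted p = 0.134) in FeAAD. By adjusted p of Pearson's r, Tnfsf8 and Tnfsf11 also passed in FeAAD, at r = 0.74 (exact permutation p = 0.012) and 0.93 (exact permutation p = 0.00147), and Tnfsf9 and Tnfsf11 in MaAAD, at r = 0.92 (exact permutation p = 0.00397) and 0.88 (exact permutation p = 0.00893). By Spearman's rho, the relations with an adjusted p under 0.05 were those of Tnfrsf1b in FeAAD and Tnf in MaAAD.

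The correlations were not compared with each other by a test. For Tnfrsf11b, r with the score was 0.19 in FeAAD (exact permutation p = 0.664, adjusted p = 0.699, n = 9) and 0.10 in MaAAD (exact permutation p = 0.829, adjusted p = 0.829, n = 7), and its rho was 0.28 (exact permutation p = 0.463) and 0.36 (exact permutation p = 0.444). Tnfrsf12a had r = 0.18 and rho = 0.09 in FeAAD (exact permutation p = 0.632 and 0.818, n = 9) and r = 0.59 and rho = 0.29 in MaAAD (exact permutation p = 0.161 and 0.556, n = 7). Tnfrsf1a had r = 0.69 and rho = 0.63 in FeAAD (exact permutation p = 0.0417 and 0.076, n = 9) and r = 0.38 and rho = 0.07 in MaAAD (exact permutation p = 0.405 and 0.906, n = 7). Without the 2 libraries farthest from the median score, which leaves 7 and 5 aortas, r was 0.73 for Tnfrsf1b, 0.68 for Tnfsf8 and 0.59 for Tnfsf11 in FeAAD, 0.97 for Tnf, 0.75 for Tnfrsf1b, 0.84 for Tnfsf9 and 0.61 for Tnfsf11 in MaAAD, and 0.20 for Tnf in FeAAD, and no relation had an adjusted exact permutation p under 0.05. With 5 aortas the exact permutation p cannot go below 0.0167 before adjustment over the 20 relations, and that of Tnf in MaAAD was 0.167 after it, so in MaAAD the loss of the calls says nothing about the relations.

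**Figure D4:**
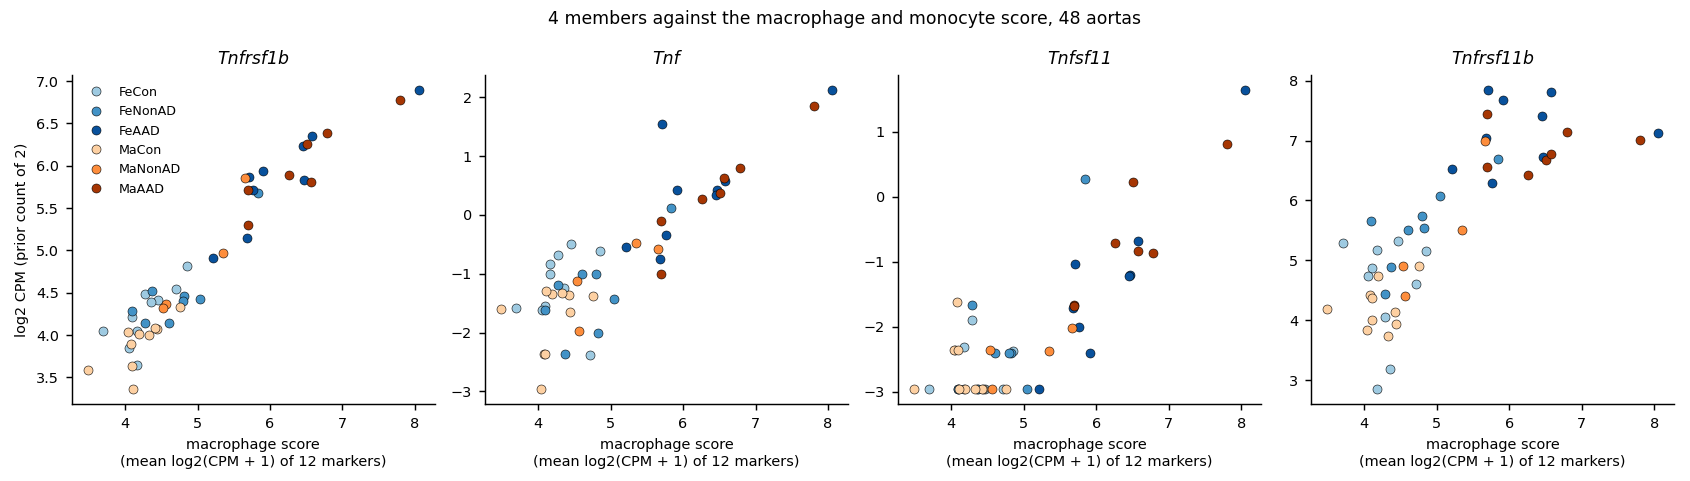
Log2 CPM (prior count of 2) of Tnfrsf1b, Tnf, Tnfsf11 and Tnfrsf11b against the macrophage and monocyte score in each of 48 aortas, coloured by group. Within the FeAAD points r is 0.89 for Tnfrsf1b and 0.19 for Tnfrsf11b, whose FeAAD points span scores from 5.21 to 8.05.

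The partners of the members that are not themselves members were looked at after their values were known. Tnfrsf8, the receptor CD30 of the Tnfsf8 product, was called higher in both sexes, at 1.63 (SE 0.60, edgeR adjusted p = 0.0253) in females and 1.40 (SE 0.54, edgeR adjusted p = 0.0386) in males. Tnfrsf11a, the signalling receptor RANK, had log2 fold changes of -0.78 (SE 0.15, edgeR adjusted p = 4.03e-05) and -0.62 (SE 0.16, edgeR adjusted p = 0.00223), under the fold required. Tnfrsf14 and Ltbr, the receptors of LIGHT, had 0.72 and 0.02 in females and 0.63 and 0.18 in males, none of them called. Tnfsf12, which encodes TWEAK, the ligand of Fn14, had -0.30 (edgeR adjusted p = 0.0796) in females and -0.46 (edgeR adjusted p = 0.016) in males.

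In the wider superfamily, of 13 other ligands 8 passed the filter, and 3 of them rose in FeAAD and 2 in MaAAD against controls. Of all genes tested, 9.94% were called higher and 2.78% lower in females, and 9.18% and 2.18% in males. The third ligand was Ltb, named after its values were seen, at 2.53 (SE 0.54, edgeR adjusted p = 1.81e-04) in females and 0.95 (SE 0.54, edgeR adjusted p = 0.173) in males. Tnfsf15 (TL1A) rose by 1.68 (SE 0.57, edgeR adjusted p = 0.015) in females and 2.24 (SE 0.62, edgeR adjusted p = 0.00349) in males, and Tnfsf18 (GITR ligand) by 1.20 (SE 0.38) and 1.57 (SE 0.39). Of 24 other receptors 20 passed the filter, of which 6 rose in females, and in males 8 rose and Tnfrsf25, the receptor of TL1A and likewise named after its values were seen, fell by 1.41 on the log2 scale (SE 0.24, edgeR adjusted p = 8.38e-06). The largest mean changes were those of Tnfrsf13b (TACI, a receptor of B cells), at 3.18 (SE 0.41, edgeR adjusted p = 2.4e-08) and 2.90 (SE 0.41, edgeR adjusted p = 3.97e-07), Relt, at 2.13 and 2.43, and Tnfrsf23, a decoy receptor of TRAIL in mice, at 2.01 and 2.46, the last with close paralogs that make the assignment of its reads uncertain. The medians over the tested genes were 0.79 and 0.80 for these ligands and 0.62 and 0.44 for these receptors. The test of the sex difference in the response from Con to AAD called 0 of these ligands and receptors by edgeR or DESeq2. For all genes these shares were 0.52% and 0.84%. At an unadjusted p under 0.05 in edgeR, 1 of 8 and 3 of 20 passed, where 15.4% of all genes tested did. A gene could pass the filter through its lesion libraries, so the list counts here and below describe the lists only.

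Downstream of the receptors, the shares of adaptors and of NF-κB genes called were near those of all genes tested (9.94% called higher in females and 9.18% in males). Of 27 adaptors and signal transducers, 3 rose in both sexes and none fell: Ripk3, the kinase of necroptosis, at 2.74 (SE 0.28, edgeR adjusted p = 4.17e-10) and 2.42 (SE 0.29, edgeR adjusted p = 1.62e-08), Mlkl, its pore-forming substrate, at 1.92 (SE 0.19) and 1.91 (SE 0.20), and Traf1 at 2.08 (SE 0.25) and 1.58 (SE 0.26). Of 15 NF-κB subunits and inhibitors, 2 rose in both sexes: Bcl3, a nuclear partner of the p50 and p52 subunits, at 1.35 (SE 0.34) and 2.25 (SE 0.36), and Nfkbie, an inhibitor, at 1.60 (SE 0.21) in both. Of 7 genes for the shedding of TNF and its receptors, among them the protease Adam17, 0 were called in either sex by edgeR or by DESeq2, while 5 in females and 1 in males passed at an unadjusted p under 0.05.

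Most of the genes that textbooks list as induced by TNF were called. Of 18 tested, 15 were called higher in each sex and 14 in both. The share of all genes tested that were called higher was 9.94% in females and 9.18% in males. Medians of the 18 genes were 2.41 in females and 2.26 in males. The largest were Il6, at 6.26 (SE 0.92) and 6.25 (SE 1.01), Il1b, at 6.84 (SE 0.82) and 5.41 (SE 0.80), and Ccl7, at 3.90 (SE 0.71) and 5.29 (SE 0.81), with edgeR adjusted p of at most 1.78e-05. Other cytokines and leukocyte genes share these targets. All 12 macrophage and monocyte markers were called higher in the same comparisons, and their part in these values was not tested. Of 10 tested osteoclast genes that lie downstream of RANKL, 4 rose in each sex and 3 in both, beside 9.94% and 9.18% of all genes tested. Their median log2 fold change was 0.86 in both sexes, and the part of macrophage markers in their values was not tested either. The 3 were Dcstamp, a fusion protein of osteoclasts and giant cells, at 3.39 (SE 0.59) and 2.79 (SE 0.63), Atp6v0d2, a proton pump subunit, at 1.95 (SE 0.47) and 2.12 (SE 0.50), and Ocstamp at 1.64 (SE 0.43) and 2.06 (SE 0.43).

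**Figure D5:**
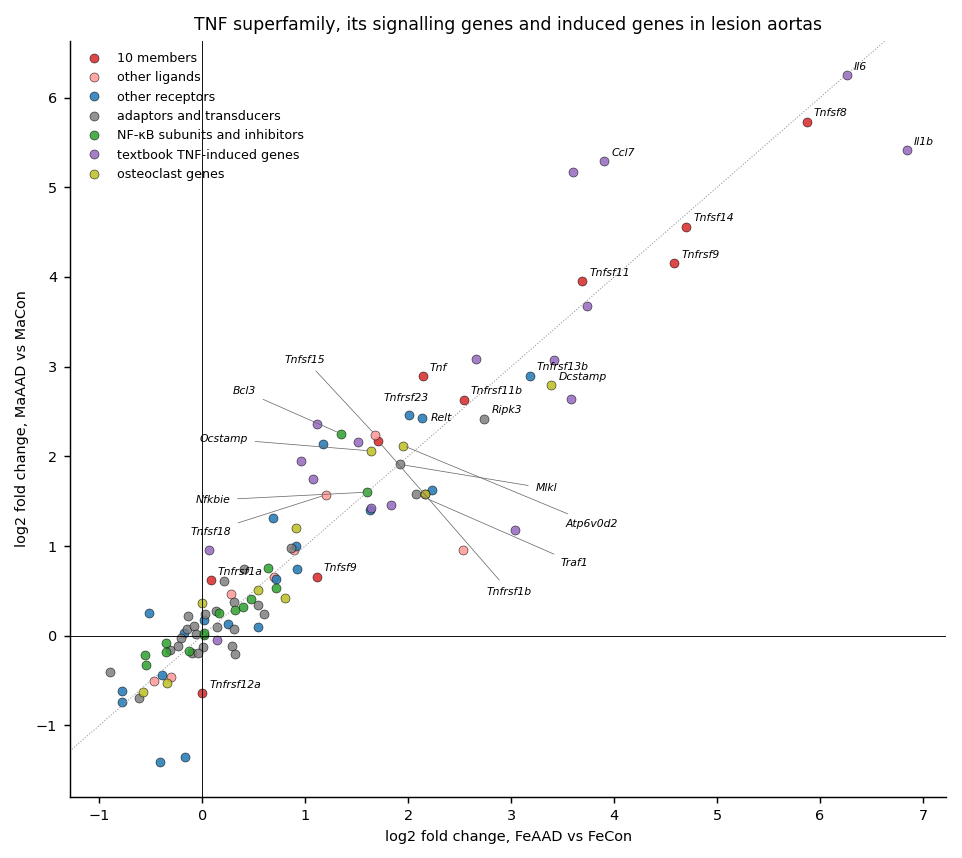
Log2 fold change of each tested gene of 7 lists in FeAAD against FeCon (horizontal) and in MaAAD against MaCon (vertical); colours mark the lists, the dotted line marks equal change, and the members and the genes named in the text for their lists are labelled. Tnfsf8 lies at 5.87 and 5.73, among the furthest points from 0, and Tnfrsf1a and Tnfrsf12a lie at 0.08 and 0 on the horizontal axis.

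As a description of which genes varied most like each member inside the groups, Spearman's rho of the deviations from the group means was taken over the 48 libraries against every tested gene, with no test. The nearest to Tnfrsf1b were Bid (rho 0.87) and Il10ra (0.861), the nearest to Tnf were Cenpi (0.724) and Ncf1 (0.723), and the nearest to Tnfsf14 were Pilra (0.737) and Nkain1 (0.728). Tnfrsf11b was nearest to Runx2 (0.753) and Ikbkg (0.711). Ccr7, a dendritic cell marker here, was the nearest gene to both Tnfrsf9 (0.727) and Tnfsf11 (0.653), with Lcn2 (0.718) and Inpp5d (0.645) second. Tnfsf8 was nearest to Il18bp (0.724) and Fbn2 (0.678), and Tnfsf9 to Acot7 (0.827) and Jpt1 (0.77). Among the members that were not called, Tnfrsf1a was nearest to Cdipt (0.864) and Ltbr (0.846), and Tnfrsf12a to Rbmxl1 (0.82) and Sdc4 (0.805). The 48 points share library depth and cell composition, and for the members with few counts many deviations are ties at 0 counts.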

How the data were processed

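RNA of 48 thoracic aortas, 1 per mouse, was sequenced as strand-specific mRNA libraries. The authors deposited 1 table of expected counts per gene and library, which per the labels' processing notes were made with Bowtie2 and RSEM 1.3.1 on GRCm39. They were rounded to whole numbers (4.99% of values were not whole, and none of those of the 10 members).

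Genes were filtered with filterByExpr (14431 kept), scaled with TMM factors (0.874 to 1.08) and tested by quasi-likelihood with 1 mean per group (edgeR 4.0.16, R 4.3.3) and Benjamini-Hochberg adjustment over all genes tested. Standard errors were derived from the fold change and its F statistic, and are imprecise where few reads were counted. DESeq2 1.42.0, other scalings, filters and samples, a block on replicate number and each library left out were alternatives, and those on clock genes, on FeCon10 with FeNonAD8, on marker lists without FeAAD2 or MaCon2, on keeping the genes of the full fit and on summed counts and levels per length without a library were chosen after seeing the data. Ratios and correlations used exact permutation tests over all arrangements of the libraries, coded with numpy 2.4.6, with the ranks for Spearman's rho from scipy 1.17.1. The script was tested on simulated data. Promoter sequences and transcript lengths came from tables on GRCm38, not the build of the counts.

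The members and lists were chosen with earlier results of these data known. Named were all members and, per list, the 3 genes with the largest mean change among those called higher in both sexes and the 2 with the lowest among those called lower in both, without the markers, and the 2 genes nearest to each member. Partners of the members, Ltb and Tnfrsf25 were named after their values were seen. Library totals of 13548000 to 17281273 counts set the precision, and count intervals cover counting error only.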

Additional observations from a re-analysis of the deposited data

Results flagged for a closer look

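A library was singled out where its gap to the nearest other library of its group, divided by the range of the group on the log2 scale, was above Dixon's limit. Of 72 groups tested (10 members and 2 ratios in 6 groups), 11 held such a library. The limit's rate of about 1 in 20 by chance assumes normal values. Several of these groups hold few counts with ties, so the number to expect by chance is not known. FeNonAD8 was the highest FeNonAD library for 4 members, with gaps of 0.571 for Tnfrsf1a (248 CPM), 0.754 for Tnfrsf1b (51.2 CPM), 0.718 for Tnfsf8 (89 counts) and 0.601 for Tnfsf11 (17 counts). MaAAD7 was the highest MaAAD library for Tnfsf9, with a gap of 0.579 (7.23 CPM), and for Tnfsf14, with a gap of 0.674 (163 counts). FeAAD5 was the highest FeAAD library for Tnfsf11, with a gap of 0.504 (51 counts). FeCon2 was the lowest FeCon library for Tnfrsf1a, with a gap of 0.561 (112 CPM). The other 3 rested on 3 to 6 counts: Tnfrsf9 in MaCon2 with a gap of 0.701 (6 counts) and in MaNonAD2 with a gap of 0.931 (3 counts), and Tnfsf11 in MaCon7 with a gap of 0.551 (3 counts).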

How the results depend on the processing

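Of 937 counts, ratios and correlations under alternatives, 891 stayed within 1.5 times of the reported value or on the same side of the threshold and 0 reversed. A reversal was counted only for results that had passed with all libraries, and values that had not passed could change sign. Tnf in FeNonAD vs. FeCon, for example, ran from -0.47 to 0.12 when 1 library was left out. Of 6946 fold changes of members that were tested, 28 lost and 46 gained a call and 0 reversed. A further 104 were not tested because the member failed the alternative's own filter, 22 of them called with all libraries; with the genes of the full fit kept, 21 of these 22 were still called, 1 was lost (Tnfrsf9 in FeAAD vs. FeNonAD with only the groups compared, at 3.21) and 4 others gained a call. The cause of these changes was not tested unless stated. The FeNonAD vs. FeCon count of 1 became 2 with library totals and on adjusted p alone, and 0 with only the groups compared, where Tnfsf8 and 4 others failed the filter (4.56, still called, when kept), with only libraries holding more Dbp than Arntl, and without FeCon10 and FeNonAD8. The count of 2 in MaNonAD vs. MaCon became 0 with only libraries holding more Dbp than Arntl, where the log2 fold changes were 1.15 for Tnfrsf1b and 1.63 for Tnfrsf11b, and 3 with the clock gene ratio as a covariate, which added Tnfsf8 at 5.20. With only the groups compared, FeAAD vs. FeCon gave 3 and MaAAD vs. MaCon 4, where 5 and 3 members no longer passed the filter. MaAAD vs. MaNonAD gave 3 with DESeq2 and 3 without FeCon10 and FeNonAD8. Leaving out 1 library gave 0 to 2 members in FeNonAD vs. FeCon and in MaNonAD vs. MaCon, 6 to 8 in FeAAD vs. FeCon, 6 to 7 in MaAAD vs. MaCon, 4 to 7 in FeAAD vs. FeNonAD and 0 to 4 in MaAAD vs. MaNonAD. The genes of the pathway lists called rose from 32 to 66 in females and from 35 to 57 in males on adjusted p alone. Members correlated with the macrophage score by Pearson's r in FeAAD went from 3 to 7 with the median over markers. Without the 2 libraries farthest from the median score, the count was 0 in both groups, but only 5 MaAAD aortas were left, with r of 0.97 for Tnf and 0.84 for Tnfsf9 and adjusted p of 0.167 and 0.292, and an exact p that cannot go below 0.0167 before adjustment. By Spearman's rho the count was 0 in both groups under both changes. The Tnfrsf1b to Tnfrsf1a difference ranged from 0.36 to 0.96 in MaNonAD vs. MaCon and from 0.55 to 1.14 in MaAAD vs. MaNonAD when 1 library was left out.

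Same-numbered libraries correlated from -0.5 to 0.43 in their deviations from group means, with no comparison in which every pair was over 0.1. They were not treated as pairs, though this check cannot show that they share nothing. With the replicate number as a block, the counts of called members were 1, 1, 8, 7, 5 and 0 in FeNonAD vs. FeCon, MaNonAD vs. MaCon, FeAAD vs. FeCon, MaAAD vs. MaCon, FeAAD vs. FeNonAD and MaAAD vs. MaNonAD, and no ratio changed its call. Tnfsf8 in FeAAD vs. FeNonAD was called with the block, at 2.64 (edgeR adjusted p = 0.00788). Lost in that comparison were Tnfrsf9, at 1.98 (edgeR adjusted p = 0.0851), and Tnfsf9, at 0.82. Tnfrsf11b was lost in MaNonAD vs. MaCon, at 1.49 (edgeR adjusted p = 0.0918). The clock gene Dbp exceeded Arntl in 6 of 10 MaCon, 4 of 4 MaNonAD, 7 of 7 MaAAD, 9 of 10 FeCon, 5 of 8 FeNonAD (not in FeNonAD8) and 7 of 9 FeAAD libraries, and the time of collection of each aorta was not given in the labels. The study's methods place the sampling of feces on a single day, in a morning window directly before the mice were killed. Tnf, Tnfrsf9, Tnfsf8, Tnfsf11 and Tnfsf14 had at most 9 counts in a control library, which limits the precision of their fold changes.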
